A study of Rattus norvegicus with 6 samples.

Results

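Megalin-cubilin endocytosis was represented by 8 genes, chosen by name as the receptors and helpers of protein uptake in the proximal tubule: Lrp2, Cubn, Amn, Dab2, Lrpap1, Clcn5, Ocrl and Fcgrt. Together they had 12 of the 61537 non-control probes of the array, each assigned through its transcript accession, and 8 of the 15645 genes that could be named. All 12 probes entered the test. Cortical kidney RNA came from male Sprague-Dawley rats, bought at 5 weeks of age, and each animal had 1 single-colour Agilent array. In the first group, 3 rats (TBBC 1, 2 and 3) had been dosed for 4 weeks with 300 mg/kg/day of TBBC, the 4,4' form of thiobis(6-tert-butyl-m-cresol), a phenolic antioxidant used in rubber and plastics. In the second group, 3 rats (vehicle 1, 2 and 3) had been given corn oil over the same period. The groups thus represent 1 dose and 1 time in young males, and the comparison asks how this treatment left the uptake machinery of the cortex at the transcript level. All values are log2 of the processed spot intensity over the 75th percentile of its array, called the relative signal here.

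Cells of the proximal tubule recover filtered albumin, vitamin-binding proteins and small hormones by receptor-mediated endocytosis. Megalin and the cubilin-amnionless complex bind these ligands at the brush border, adaptors such as Dab2 draw the receptors into clathrin-coated pits, and acidification of the endosome releases the cargo so that the receptors can return to the surface. Inherited loss of these proteins causes low-molecular-weight proteinuria, in humans as Donnai-Barrow syndrome (LRP2), Imerslund-Gräsbeck syndrome (CUBN or AMN), Dent disease (CLCN5) and Lowe syndrome (OCRL).

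None of the 8 genes passed the test, and most of them lay lower in the TBBC-treated cortex. In 5 of 8 genes, Amn, Lrpap1, Dab2, Lrp2 and Fcgrt, every TBBC array lay below every vehicle array, where this was so for 16.9% of the 12298 named genes tested. Their log2 differences (TBBC minus vehicle) ran from -0.64 to -0.28. For Cubn, Clcn5 and Ocrl the groups overlapped, with differences of -0.11, 0.06 and -0.10. The median over the 8 genes was -0.33, beside -0.04 over all named genes. With limma and Benjamini-Hochberg adjustment over 41992 tested probes, 0 of the 12 probes passed an adjusted p of 0.05, and 5 had an unadjusted p under 0.05, 1 in each of those 5 genes. Across the array 333 probes, 0.793%, passed (0.417% lower and 0.376% higher in TBBC rats), and 19.8% of named genes had an unadjusted p under 0.05. When limma's variance was fitted with a trend and robustly, 1 of the 8 genes (Amn) passed, but so did 1392 of the 41992 probes. Under every other of the 22 alternatives run, 0 of the 8 genes passed.

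The arrays were alike in depth of signal. Between 67.1% and 70.9% of probes lay well above background on each array, no spot was saturated, and the 75th percentile used for scaling was lowest in TBBC 2 (861) and highest in vehicle 3 (1038). TBBC 2 and TBBC 3 had a slide and scan number of their own (slide 2, scan 2), while TBBC 1 lay on slide 1 (scan 1) with all 3 vehicle rats, so a comparison within a slide rests on TBBC 1 alone. Of the proximal tubule markers, 17 of 17 lay well above background on all 6 arrays. So did 5 of 5 markers of the thick ascending limb and distal tubule. Of the markers tested, 7 of 7 for podocytes, 8 of 8 for endothelium and 10 of 11 for macrophages met this too. The same held for 39593 of the 41992 tested probes, so these counts do not identify the tissue.

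The promoters of Lrp2, Amn and Lrpap1, 3 of the genes with no overlap between groups, are shown with that of Cubn, whose groups overlapped. The sequences are the 250 bases before the annotated start of the gene in RefSeq (build GRCr8), written from 5′ to 3′ on the strand of the gene, and capitals mark the GC box (GGGCGG on either strand), which Sp1-family factors can bind.
Lrp2 promoter, chr3:74754536-74754785, minus strand: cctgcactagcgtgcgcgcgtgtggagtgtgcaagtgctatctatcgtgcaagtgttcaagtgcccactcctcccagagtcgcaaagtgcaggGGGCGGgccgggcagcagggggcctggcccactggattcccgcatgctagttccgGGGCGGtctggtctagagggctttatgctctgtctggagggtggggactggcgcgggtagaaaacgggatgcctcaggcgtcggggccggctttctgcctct
Amn promoter, chr6:136132317-136132566, plus strand: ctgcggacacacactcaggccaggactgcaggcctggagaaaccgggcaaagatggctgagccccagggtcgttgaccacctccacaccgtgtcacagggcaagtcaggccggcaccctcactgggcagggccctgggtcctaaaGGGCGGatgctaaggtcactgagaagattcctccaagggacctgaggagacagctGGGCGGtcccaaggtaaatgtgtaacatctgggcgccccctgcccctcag
Lrpap1 promoter, chr14:79875752-79876001, plus strand: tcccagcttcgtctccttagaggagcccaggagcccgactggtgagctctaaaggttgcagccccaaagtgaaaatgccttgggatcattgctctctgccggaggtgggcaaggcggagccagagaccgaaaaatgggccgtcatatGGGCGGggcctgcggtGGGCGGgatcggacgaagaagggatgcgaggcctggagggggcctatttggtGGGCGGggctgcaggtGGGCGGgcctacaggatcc
Cubn promoter, chr17:81501695-81501944, minus strand: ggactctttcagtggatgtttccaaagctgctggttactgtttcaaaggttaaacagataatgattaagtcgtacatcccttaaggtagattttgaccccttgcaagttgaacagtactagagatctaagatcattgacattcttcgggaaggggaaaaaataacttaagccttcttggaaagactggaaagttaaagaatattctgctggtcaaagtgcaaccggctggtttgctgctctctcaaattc
The first 3 were rich in G and C, at 64.4%, 62.8% and 63.6%, and held 2, 2 and 4 GC boxes, while that of Cubn had 40% G and C and no GC box. Over all 33469 promoters of that table the median was 51.2% and 30.5% held a GC box. The table held promoters for 7 of the 8 genes, with 2 for Clcn5, and Ocrl was not matched. Of the windows not shown, that before the start of Clcn5, whose groups overlapped, had 60% G and C and 1 GC box. Those listed for Dab2 and Fcgrt, whose groups did not overlap, had 47.6% and 53.2% and no GC box. The other window for Clcn5 had 48% and none. Those of Dab2 and Fcgrt and this last window lay before starts inside the annotated gene. GC boxes were thus present in some genes and absent in others, both with and without overlap between groups. Other letters were searched on both strands in the same window. The letters TATAAA of the classical core promoter, GTTAAT (a short HNF1 site) and CAAAGTCCA (an HNF4 site) were in none of the 8 promoters, against 12.9%, 6.45% and 0.338% of all promoters. CCAAT was found in that of Dab2 (34.0% of all) and TGACNNNGC, the core of the antioxidant response element, in 1 of Clcn5 (10.1% of all). None of these matches overlapped another.

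**Figure D1:**
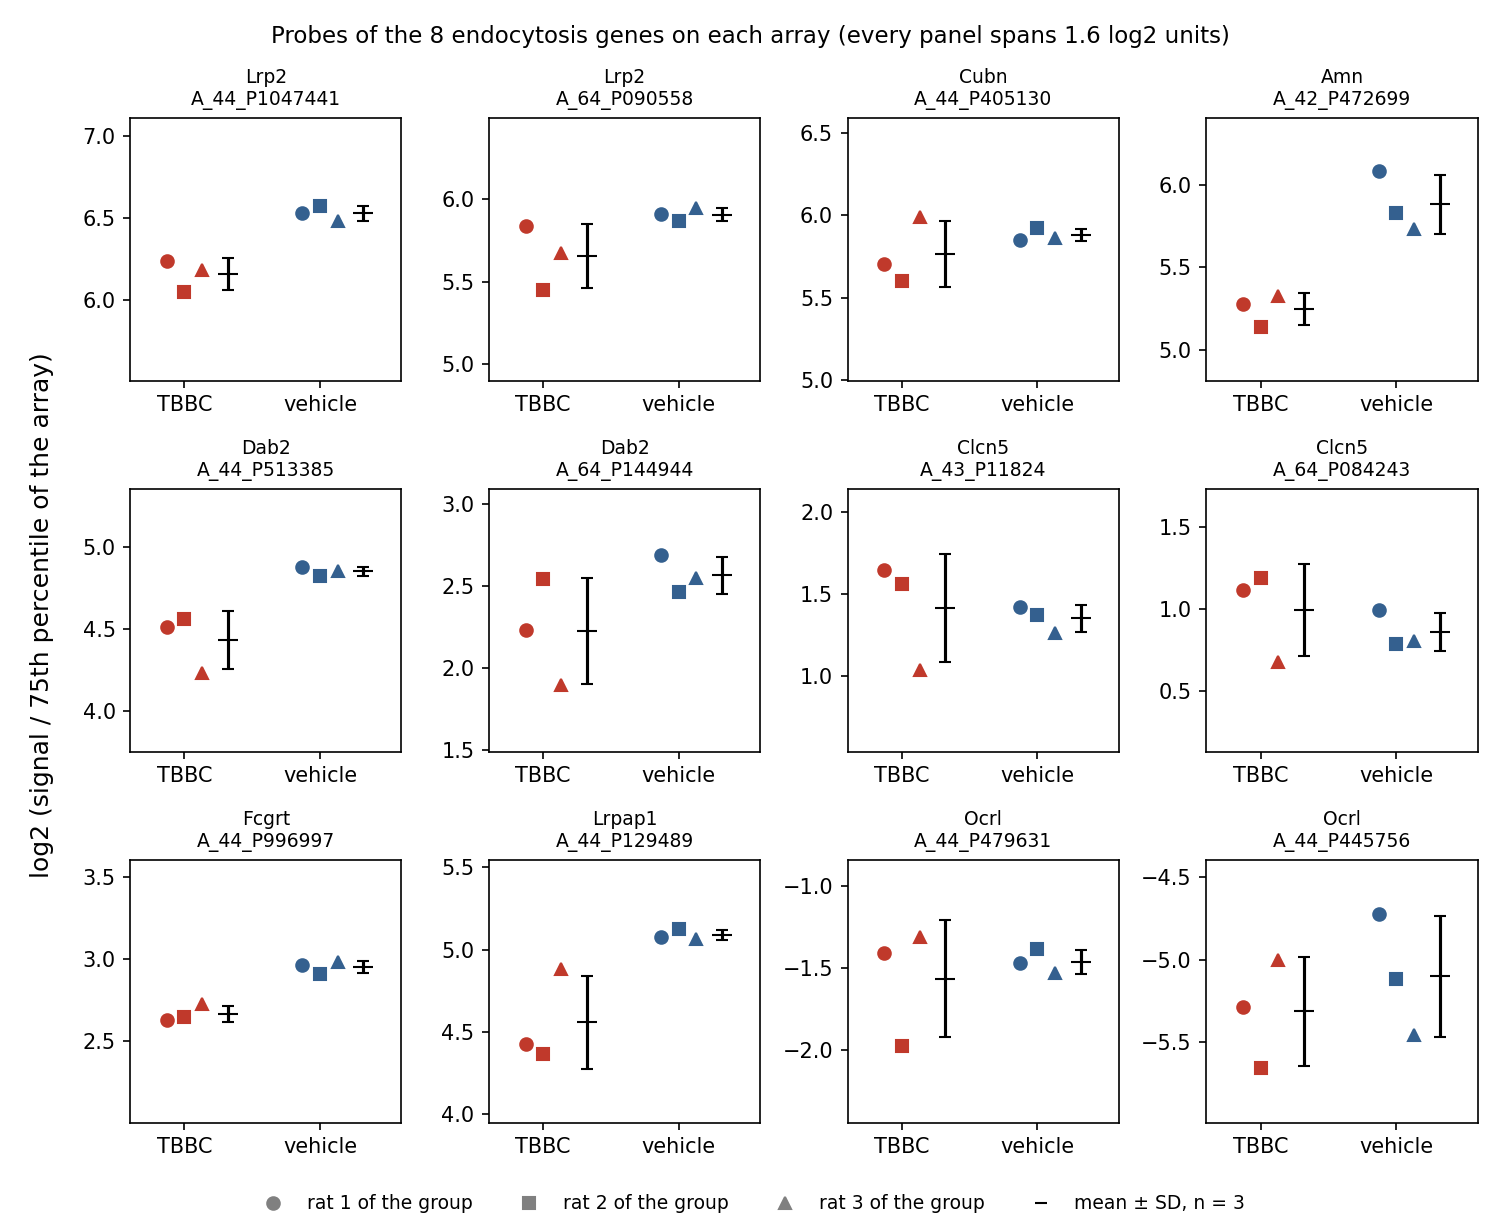
Relative signal (log2 of the signal over the 75th percentile of the array, vertical axis) of the 12 probes of the 8 genes, in TBBC rats (red, left) and vehicle rats (blue, right). Symbols are single rats and black bars the mean and SD of 3 arrays. All TBBC symbols lie below all vehicle symbols for both Lrp2 probes, Amn, 1 Dab2 probe, Fcgrt and Lrpap1.

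Lrp2 encodes megalin, the giant endocytic receptor that carries most of the cargo. Its brighter probe (A_44_P1047441) had a relative signal of 6.24, 6.05 and 6.19 across TBBC 1 to 3, against 6.53, 6.57 and 6.48 in vehicle 1, 2 and 3. The lowest vehicle rat was above the highest TBBC rat, and TBBC 2 had the lowest value. The log2 difference was -0.37 ± 0.10 (SE, 95% confidence interval -0.62 to -0.12, limma adjusted p = 0.139), which is -22.6% on the linear scale. The second probe (A_64_P090558) read 5.84, 5.45 and 5.67 in the TBBC rats, against 5.91, 5.87 and 5.94 in the vehicle rats. Here too the groups did not overlap, but TBBC 1 came close to the lowest vehicle value, and the difference was -0.25 ± 0.13 (SE, adjusted p = 0.331).

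Cubn encodes cubilin, a large peripheral membrane receptor with no transmembrane segment of its own. Its single probe read 5.70, 5.60 and 5.99 across TBBC 1 to 3, against 5.85, 5.92 and 5.86 across vehicle 1 to 3. TBBC 1 and 2 lay below the vehicle range and TBBC 3 above it. The difference was -0.11 ± 0.13 (SE, adjusted p = 0.672 in limma), with a 95% confidence interval on the linear scale from -25.7% to 14.9%. The value rested on single rats: it was -0.03 without TBBC 2 and -0.23 without TBBC 3.

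Amn encodes amnionless, the membrane protein that anchors cubilin and brings it to the brush border. Of the 8 genes it had the largest difference, with 5.28, 5.14 and 5.33 in the TBBC rats, against 6.08, 5.83 and 5.73 in the vehicle rats. The gap between the highest TBBC rat and the lowest vehicle rat was wider than the whole range of either group. The log2 difference of -0.64 ± 0.13 (SE, 95% confidence interval -0.95 to -0.32) is -35.6% on the linear scale, and its adjusted p was 0.0866 in limma. Of all tested probes, 5.43% had a difference at or below that of Amn.

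For the subunits of the cubilin-amnionless receptor, the difference between Amn and Cubn was computed within each array. It was chosen after the single values had been seen and is given as a description. Relative to the vehicle mean, the log2 signal of Amn minus that of Cubn stood at -0.43, -0.47 and -0.66 in the TBBC rats, compared with 0.23, -0.09 and -0.13 in the vehicle rats. The groups did not overlap and differed by -0.52. For Cubn minus Lrp2 the values were 0.11, 0.20 and 0.45 in the TBBC rats, against -0.03, -0.00 and 0.03 in the vehicle rats, a difference of 0.25. Of the other pairs examined, Lrpap1 minus Lrp2 differed by -0.16 and Dab2 minus Lrp2 by -0.05, and for both the groups overlapped. An exact permutation test (two-sided) gave p = 0.1 for Amn minus Cubn and for Cubn minus Lrp2, the smallest that 3 arrays per group allow. Adjusted over the 4 pairs, that was 0.2 for each, so neither passed.

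Lrpap1 encodes the receptor-associated protein, the chaperone that escorts megalin through the endoplasmic reticulum and keeps it from binding ligand there. Its probe read 4.42, 4.37 and 4.88 across TBBC 1 to 3, against 5.08, 5.13 and 5.07 across vehicle 1 to 3. All TBBC values were below the vehicle range, TBBC 3 by much less than the others. The difference was -0.53 ± 0.16 (SE, 95% confidence interval -0.92 to -0.15, adjusted p = 0.151 in limma), or -30.9% on the linear scale. Without TBBC 3 it was -0.69 (adjusted p = 0.0544) and without TBBC 2 it was -0.44.

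Dab2 encodes the clathrin adaptor that binds the cytoplasmic tail of megalin. Its brighter probe (A_44_P513385) read 4.51, 4.56 and 4.23 across TBBC 1 to 3, against 4.88, 4.82 and 4.86 across vehicle 1 to 3. The vehicle values lay close together, all above the TBBC values, of which that of TBBC 3 was the lowest. The difference was -0.42 ± 0.12 (SE, adjusted p = 0.148 in limma), or -25.2% on the linear scale. On the second probe (A_64_P144944) the groups overlapped, with 2.23, 2.54 and 1.90 in the TBBC rats, against 2.69, 2.46 and 2.55 in the vehicle rats. Its difference of -0.34 ± 0.18 (SE, adjusted p = 0.354) had the same sign, and TBBC 3 was again the lowest array.

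Fcgrt encodes the heavy chain of the neonatal Fc receptor, which rescues albumin and IgG from lysosomal breakdown. Its probe read 2.63, 2.65 and 2.72 in the TBBC rats, against 2.97, 2.91 and 2.98 in the vehicle rats. The groups did not overlap, and the TBBC standard deviation of 0.05 was the smallest of the 8 genes. The difference was -0.28 ± 0.09 (SE, 95% confidence interval -0.51 to -0.06, adjusted p = 0.181 in limma). B2m, the beta-2-microglobulin partner of this receptor and itself a filtered megalin ligand, had 7.13, 7.31 and 7.53 in the TBBC rats, against 7.58, 7.67 and 7.54 in the vehicle rats. Every TBBC value was below the vehicle range, TBBC 3 barely so, and its difference of -0.27 ± 0.13 (SE) had an adjusted p of 0.312. B2m is named here after its values were seen.

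Clcn5 encodes the endosomal chloride-proton exchanger ClC-5. The brighter probe (A_43_P11824) read 1.64, 1.56 and 1.04 across TBBC 1 to 3, against 1.42, 1.37 and 1.26 across vehicle 1 to 3. TBBC 1 and 2 lay above the vehicle range and TBBC 3 below it. The other probe (A_64_P084243) likewise had TBBC 1 and 2 above and TBBC 3 below the vehicle range, with 1.12, 1.19 and 0.68 in the TBBC rats, against 1.00, 0.79 and 0.80 in the vehicle rats. The differences were 0.06 ± 0.18 and 0.13 ± 0.17 (SE, adjusted p = 0.881 and 0.701 in limma), and the 95% confidence interval of the first ran from -22.8% to 41.2% on the linear scale.

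Ocrl encodes a phosphoinositide 5-phosphatase of endosomes and the trans-Golgi network. Its brighter probe (A_44_P479631) read -1.41, -1.97 and -1.31 across TBBC 1 to 3, against -1.47, -1.39 and -1.53 across vehicle 1 to 3. TBBC 2 alone lay below the vehicle range, while TBBC 1 was inside it and TBBC 3 above it. The difference was -0.10 ± 0.19 (SE, adjusted p = 0.811 in limma). The dimmer probe (A_44_P445756), between -5.66 and -5.00 in the TBBC rats and between -5.46 and -4.72 in the vehicle rats, was well above background on 2 of 3 TBBC arrays and on 3 of 3 vehicle arrays.

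**Figure D2:**
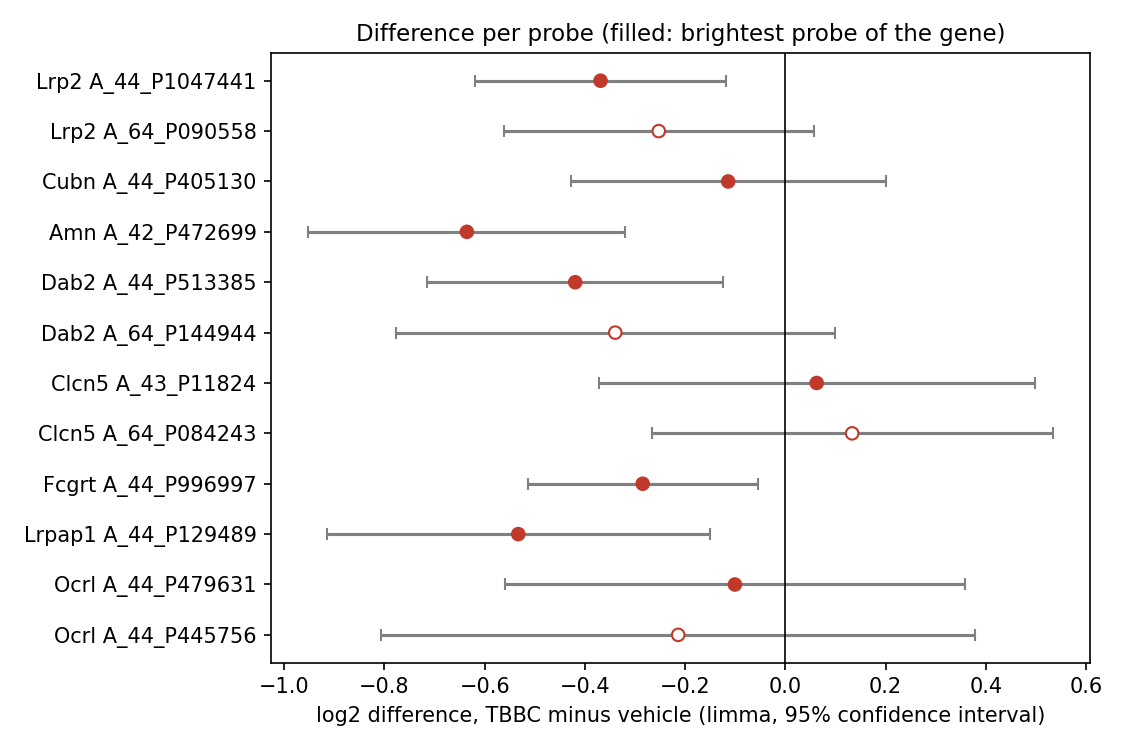
Log2 difference, TBBC minus vehicle (horizontal axis), of each of the 12 probes with its 95% confidence interval from limma; filled points are the brightest probe of each gene. The interval lies wholly below 0 for 1 probe each of Lrp2, Amn, Dab2, Fcgrt and Lrpap1, and includes 0 for the other probes.

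The TBBC rats did not move as a unit across the genes. Set against the vehicle mean, the median deviation of the 8 genes was -0.30 in TBBC 1, -0.39 in TBBC 2 and -0.27 in TBBC 3, while the vehicle rats stayed between -0.03 and 0.03. The lowest TBBC value belonged to TBBC 2 for Lrp2, Cubn, Amn, Lrpap1 and Ocrl, to TBBC 3 for Dab2 and Clcn5, and to TBBC 1 for Fcgrt. TBBC 3 was the highest of the treated rats for Cubn (0.11) and Lrpap1 (-0.21) and the lowest for Dab2 (-0.62) and Clcn5 (-0.31). For Ocrl it was TBBC 2 that stood apart, at -0.51, with 0.05 in TBBC 1 and 0.15 in TBBC 3. The standard deviation was larger among TBBC rats than among vehicle rats for 7 of 8 genes, Amn being the exception. All 3 vehicle rats lay on slide 1, while TBBC 2 and 3 lay on slide 2. Spread among TBBC rats and a difference between slides therefore cannot be told apart, and the same count over all named genes was not taken.

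**Figure D3:**
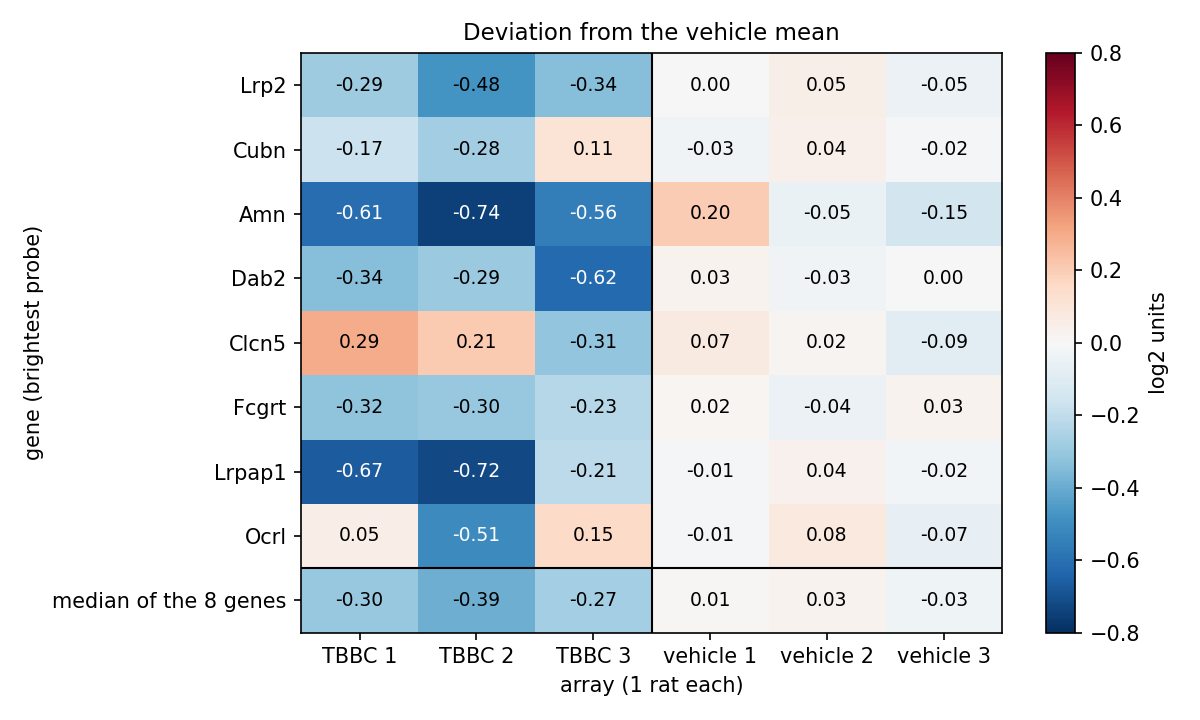
Deviation of each array (columns, TBBC left, vehicle right) from the vehicle mean in log2 units, for the brightest probe of each of the 8 genes (rows) and for their median (last row). Blue cells are below and red cells above the vehicle mean; the rows of Amn, Lrp2, Dab2, Fcgrt and Lrpap1 are blue in every TBBC rat.

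Markers of the cell that carries this machinery lay below the vehicle mean on some of the same arrays. The 17 proximal tubule markers had median deviations of -0.36, -0.16 and -0.02 in TBBC 1, 2 and 3, with a negative difference for 14 of 17 and 0 past the threshold. Their summed relative signal was 10.93, 11.27 and 11.14 in TBBC 1, 2 and 3 and 11.25 to 11.31 in the vehicle rats (log2), and no marker was at 0. The 5 markers of the thick ascending limb and distal tubule had median deviations of 0.10, -0.34 and -0.17 in the TBBC rats, 4 of 5 had a negative difference and 0 passed. Their summed relative signal was 7.25 to 8.43 in the TBBC rats and 8.51 to 8.72 in the vehicle rats. The 6 collecting duct markers had median deviations of -0.32, -0.40 and -0.36, with 5 of 6 negative and 0 past the threshold, and a summed relative signal of 7.20 to 7.40 in the TBBC rats and 7.61 to 7.86 in the vehicle rats. In TBBC 3 the median of the proximal tubule markers was nearest to the vehicle mean. There Amn stood at -0.56, Dab2 at -0.62, Lrp2 at -0.34, Clcn5 at -0.31, Fcgrt at -0.23 and Lrpap1 at -0.21. Cubn stood at 0.11 and Ocrl at 0.15. By the summed signal of these markers, TBBC 2 alone of the TBBC rats lay within the vehicle range. On that array the 8 genes had a median deviation of -0.39, with Clcn5 above the vehicle mean at 0.21. In whole cortex, fewer proximal tubule cells and less of a transcript per cell cannot be told apart, and the part of the marker values in the results was not tested.

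Dab2 and Fcgrt are also made outside the tubule, in macrophages and endothelium. The median deviation of 11 macrophage markers was -0.06, 0.09 and 0.91 in TBBC 1, 2 and 3, with a summed relative signal of 5.04 to 6.22 in the TBBC rats and 4.71 to 5.33 in the vehicle rats (log2). TBBC 3, with the highest macrophage signal, had the lowest Dab2 value but the highest Fcgrt value of the TBBC rats. The 8 endothelial markers had median deviations of -0.22, -0.17 and -0.26, and their summed relative signal was 6.11 to 6.33 in the TBBC rats and 6.35 to 6.41 in the vehicle rats. The 7 podocyte markers, all with a negative difference, stood at -0.18, -0.11 and -0.62 in the TBBC rats, with a summed relative signal of 4.59 to 5.15 in the TBBC rats and 5.08 to 5.27 in the vehicle rats. The 6 fibroblast markers tested stood at -0.05, -0.59 and 0.82, with a summed relative signal of 4.31 to 5.44 in the TBBC rats and 4.55 to 4.82 in the vehicle rats. TBBC 3 thus had the highest macrophage and fibroblast and the lowest podocyte values. Of these 4 lists 0 markers passed, and their part in the values of the 8 genes was not tested.

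**Figure D4:**
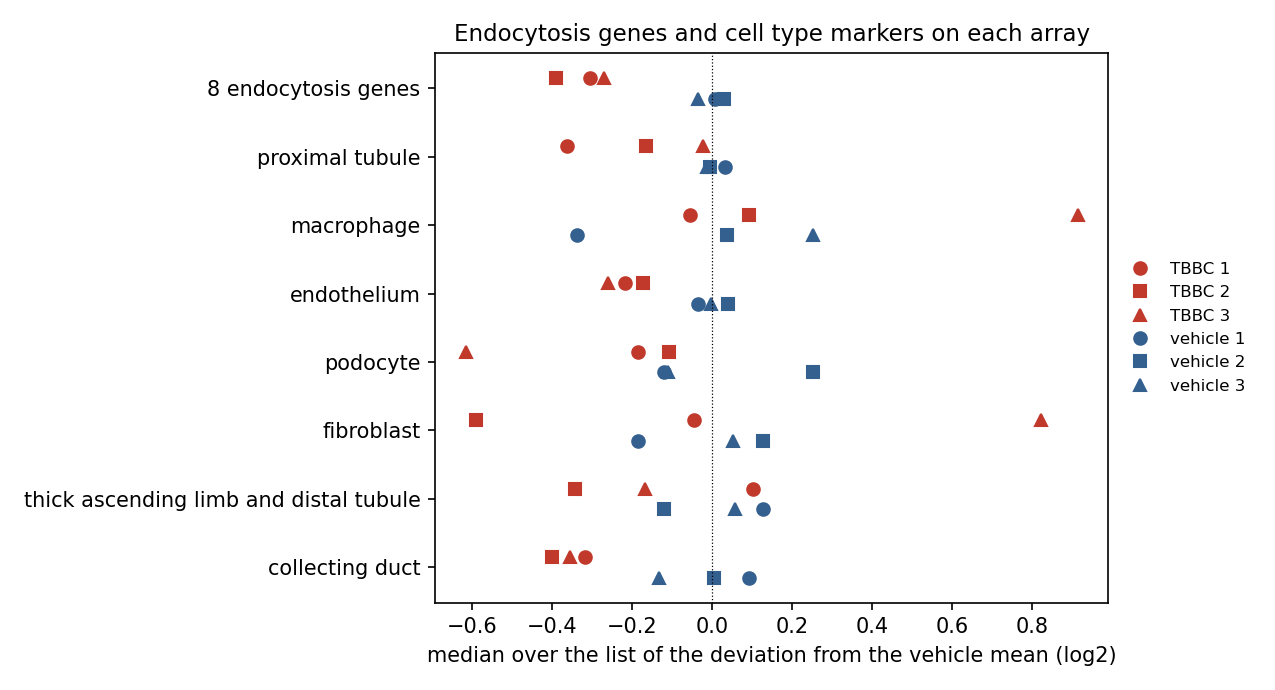
Median deviation from the vehicle mean (log2, horizontal axis) of the 8 endocytosis genes and of 7 cell type marker lists on each array; red symbols are TBBC rats and blue symbols vehicle rats. The endocytosis genes lie between -0.39 and -0.27 in all 3 TBBC rats, while in TBBC 3 the macrophage list lies at 0.91, the fibroblast list at 0.82 and the podocyte list at -0.62.

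Around the 8 genes, the coat and adaptor genes that form the endocytic pit also lay mostly below the vehicle mean without passing. Of 15 tested, 0 rose and 0 fell, beside 1.00% of named genes called in either direction. Of the 15, 14 were below the vehicle mean, with a list median of -0.21, beside -0.04 over all named genes. All TBBC arrays lay below all vehicle arrays for 7 of 15, beside 16.9% of named genes. Picalm, a clathrin assembly protein, read 0.72, 0.64 and 0.47 in the TBBC rats, against 1.20, 1.09 and 1.19 in the vehicle rats. It had the largest difference of the list, -0.55 ± 0.11 (SE, adjusted p = 0.0842 in limma). Ap2s1, the small subunit of the AP-2 adaptor, was at -0.43 ± 0.10 (adjusted p = 0.102).

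Among endosome and recycling genes 1 of 25 fell, 0 rose and 24 did not pass, beside 1.00% of named genes called in either direction. The list median was -0.12, and 20 of 25 had a negative difference. All TBBC arrays lay below all vehicle arrays for 10 of 25, beside 16.9% of named genes. The one that fell was Clcn4, a chloride-proton exchanger of the same family as Clcn5. It read 0.66, 0.32 and 0.24 across TBBC 1 to 3, against 1.57, 1.40 and 1.38 across vehicle 1 to 3, so that the groups were well apart. Its difference was -1.04 ± 0.14 (SE, adjusted p = 0.0453 in limma), and its other probes gave -0.87 and -0.81 (adjusted p = 0.0407 and 0.0464). The call was lost without vehicle 1, 2 or 3 (adjusted p = 0.193, 0.200 and 0.169) and without TBBC 2 or 3 (0.0980 and 0.0590), and it held without TBBC 1 (0.0365). A fixed slide term (-0.80, 0.167) or a random one (0.0597) ended it too, as did the comparison within slide 1 (-0.80, 0.100); over all alternatives its adjusted p ran from 0.0202 to 0.200. Clcn3, another endosomal member of the family, named after its values were seen, was at 0.26 ± 0.29 (adjusted p = 0.671).

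Ehd1, an ATPase of recycling endosomes, had 2.89, 2.41 and 2.64 in the TBBC rats, against 3.50, 3.39 and 3.30 in the vehicle rats, a difference of -0.75 ± 0.15 (SE, adjusted p = 0.0832 in limma). Appl2, an effector of Rab5 on early endosomes, was at -0.64 ± 0.10 (adjusted p = 0.0609), and a dimmer probe of it passed (A_64_P038352, -0.76 ± 0.11, adjusted p = 0.0464). Inpp5b, the phosphatase most closely related to Ocrl and named after its values were seen, read -0.43, -0.51 and -0.50 in the TBBC rats, against 0.11, 0.01 and 0.06 in the vehicle rats. Its groups were far apart for their spread, with a difference of -0.54 ± 0.09 (SE, adjusted p = 0.0687), whereas those of Ocrl overlapped.

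Other endocytic receptors of the cortex did not lie lower as a list. Of 11 tested, 1 rose, 0 fell and 10 did not pass, beside 1.00% of named genes called in either direction. The list median was 0.07. Tfrc, the transferrin receptor, rose: it read 3.08, 3.07 and 2.60 across TBBC 1 to 3, against 1.73, 1.48 and 1.72 across vehicle 1 to 3. The difference of 1.28 ± 0.17 (SE, adjusted p = 0.0414 in limma) is 2.43-fold, and its other probes gave 1.44 and 1.40 (adjusted p = 0.0366 and 0.0530). That call held without TBBC 3 (adjusted p = 0.0269) and was lost without TBBC 1 or 2 (0.0693 and 0.0939) and without vehicle 1, 2 or 3 (0.167, 0.189 and 0.164). A fixed slide term (1.44, 0.152), a random slide block (0.0529) and the comparison within slide 1 (1.44, 0.0658) ended it as well, with a range over all alternatives from 0.0182 to 0.189. Scarb1, a scavenger receptor for HDL, was at 0.69 ± 0.29 (adjusted p = 0.251).

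**Figure D5:**
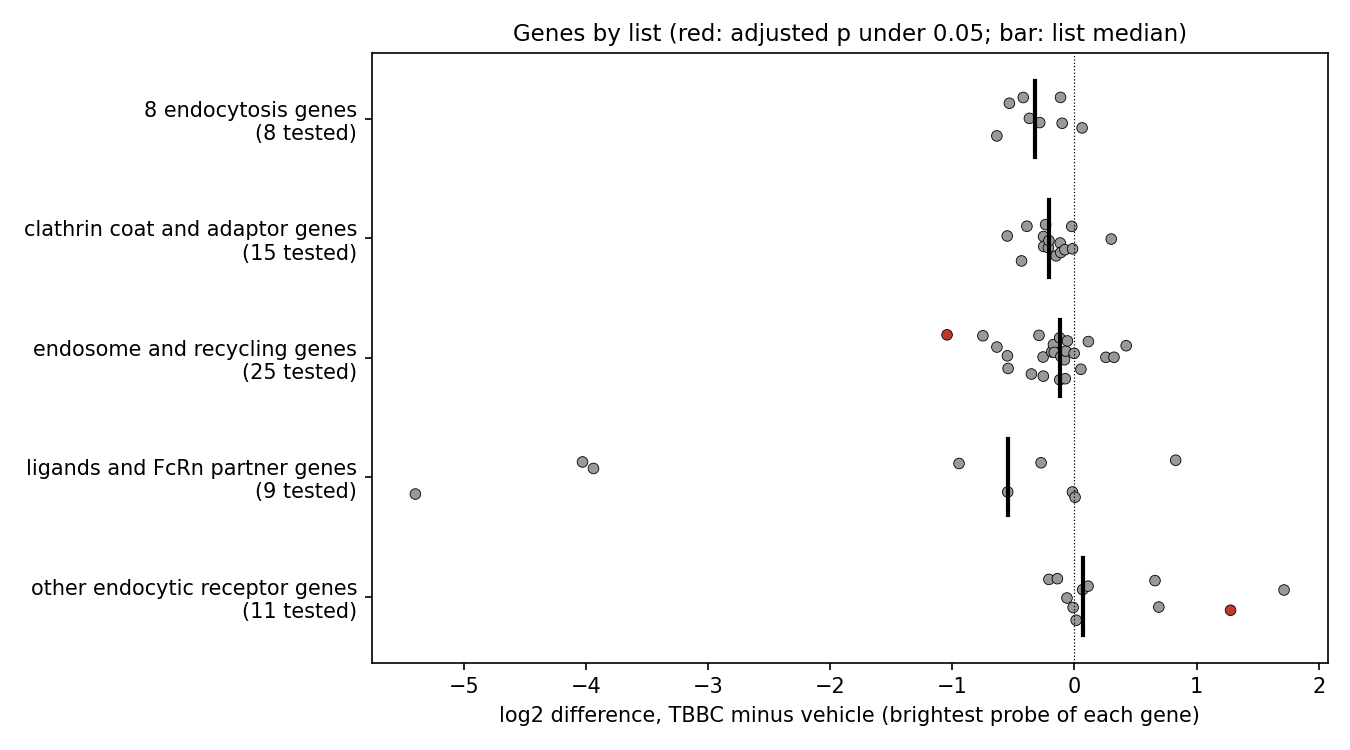
Log2 difference, TBBC minus vehicle (horizontal axis), of the brightest probe of each gene tested in the 8 endocytosis genes and 4 lists of the surrounding pathway; vertical bars are list medians and red points passed an adjusted p of 0.05. Clcn4 at -1.04 and Tfrc at 1.28 are the red points, and 3 ligand genes (Gc, Ttr and Alb) lie at -3.94 or below.

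Transcripts of the ligands themselves were the most uneven of the lists. Of 9 tested 0 passed, beside 1.00% of named genes called in either direction, and the list median was -0.55. Only 6 of the 9 were well above background on all arrays. Gc, Alb and Ttr entered the test through the vehicle rats, where they were higher, and the list median includes them. Tcn2, the vitamin B12 carrier transcobalamin, read 3.51, 3.24 and 3.01 in the TBBC rats, against 3.95, 3.68 and 3.77 in the vehicle rats. Its groups did not overlap, and its difference was -0.55 ± 0.16 (SE, adjusted p = 0.147 in limma). Rbp4, the plasma retinol carrier, was high in TBBC 2 alone, with 2.17, 4.89 and 1.95 in the TBBC rats, against 2.94, 1.33 and 2.26 in the vehicle rats. Apoa1, the main protein of HDL, was at -0.95 ± 0.54 (adjusted p = 0.384), and at -0.36 without vehicle 1.

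Gc (vitamin D-binding protein), Alb (albumin) and Ttr (transthyretin), plasma proteins made mainly by the liver, are named after their values were seen. Alb read -3.61, -2.97 and -6.44 across TBBC 1 to 3, against 2.39, -3.46 and -0.13 in vehicle 1, 2 and 3. Ttr read -4.38, -3.89 and -8.14 in the TBBC rats, against 1.63, -4.34 and -1.61 in the vehicle rats. Both were high in vehicle 1 and, less so, in vehicle 3, while vehicle 2 lay within the TBBC range. Gc read -2.18, -5.90 and -7.21 in the TBBC rats, against 0.02, -1.03 and 1.91 in the vehicle rats. It was well above background on 1 of 3 TBBC arrays, while Alb and Ttr were on 2 of 3. None of the 3 passed (adjusted p = 0.121 for Gc, 0.243 for Alb and 0.267 for Ttr). The part of these transcripts in the other results was not tested. The difference of Lrp2 was -0.37 without vehicle 1 and -0.39 without vehicle 3 (limma adjusted p = 0.365 and 0.326). That of Amn was -0.54 without vehicle 1 and -0.71 without vehicle 3 (limma adjusted p = 0.279 and 0.214). Each of these fits left out vehicle 1 or vehicle 3 and kept the other, so they cannot show the part of these transcripts.

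The genes whose profile lay nearest to that of Lrp2 over the 6 arrays were ranked by the root mean square distance between log2 values centred on the vehicle mean. Among 11756 named genes the 5 nearest were Zfp865, Fry, Sestd1, Brap and Stx7, at distances of 0.024, 0.028, 0.030, 0.031 and 0.038. Of the other members, Fcgrt was nearest to Lrp2 (0.099, rank 235), followed by Dab2 (0.144, rank 857), Lrpap1 (0.192, rank 1955) and Cubn (rank 2389).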

How the data were processed

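Per the file headers, the authors' spot intensity values come from Feature Extraction 10.7.1.1 (Agilent), whose processed signal has local background and spatial trend removed. The deposited value table holds a linear ratio, which lay within 0.232% of that signal divided by the array's 75th percentile; its column medians ran from 0.107 to 0.114, with no log or centring. Accessions were matched to RefSeq genes (GRCr8); the headers name another build, so the only coordinates given are those of the printed promoter sequences, from RefSeq's own table. Control spots (1439 of 62976) and flagged spots (0 to 9 per array) were left out. Testing required a probe to be well above background on all unflagged arrays of 1 group or both, with at least 2 unflagged arrays per group. Log2 values over the 75th percentile were fitted with limma 3.58.1 in R 4.3.3 (two-sided). A gene is given by its brightest probe. The number of arrays limits the precision. The replicates were biological, per the labels' design text.

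Members, lists, tests and the rule for named genes (all 8 genes; list genes that passed; the 3 largest differences per list among genes well above background on all arrays; the 5 genes nearest to Lrp2) were chosen with earlier results of these data known; some genes that the rule names are not reported here. Alternatives were other scalings, normexp (on the median signal, as no mean signal was given), the value table, filters, flags, probe summaries, variance models, slide and replicate terms, and each array left out. The fit was tested on simulated data.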

Additional observations from a re-analysis of the deposited data

How the results depend on the processing

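Over 22 alternatives, the 8 genes gave 176 results, of which 169 kept their direction and stayed short of the threshold. Amn passed when eBayes used trend and robust (adjusted p = 0.0356), so that 1 of the 8 genes passed in place of 0; with any 1 array left out 0 passed. The differences of Lrp2, Amn, Lrpap1, Dab2, Fcgrt and Cubn were negative under every alternative run. Clcn5 turned to -0.033 with normexp (the cause was not tested), -0.053 without TBBC 1 and -0.01 without TBBC 2, and ran from -0.053 to 0.25 over the fits with 1 array left out. Ocrl turned to 0.054 with a fixed slide term or slide 1 only and to 0.10 without TBBC 2 (-0.23 to 0.10 with 1 array left out). Of the surrounding genes that did not pass, Picalm and Appl2 passed under 2 alternatives each and Ap2s1 and Ehd1 under 1 each. Rbp4 turned to -0.0043 under those slide fits and to -0.11 without TBBC 2 (-0.11 to 1.35). With a fixed slide term the adjusted p of the 8 genes ran from 0.293 to 0.955, as a random block from 0.112 to 0.883 and within slide 1 from 0.0931 to 0.814; the first and last rest on TBBC 1 alone, assumed in the last to vary like the vehicle arrays. Across the array, 333 probes passed, but 1039 with normexp, 1392 with trend and robust and 79 with no filter on dim probes (61537 tested). With the brightest probe of a gene 175 passed, and with the mean of its probes 220 (32956 tested). Slide as a fixed term gave 63 and as a random block 185. With 1 array left out, 7 to 430 passed (111 without TBBC 2, and 17, 7 and 28 without vehicle 1, 2 and 3). The cause of these changes was not tested. The replicate numbers did not pair the arrays (correlations of same-numbered deviations -0.09, 0.03 and -0.07). With the replicate block 0 probes passed in limma, against 333 without it. At an unadjusted p under 0.05 there were 6876 with the block and 8390 without it. With the block, the adjusted p of the 8 genes ran from 0.216 to 0.870.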
